A study of Mus musculus with 18 samples.

Results

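Circular RNAs (circRNAs) are closed loops made when a downstream splice site is joined back to an upstream one, and without free ends they resist exonucleases such as RNase R. Many are made from genes of synapses and are abundant in brain. N6-methyladenosine (m6A) is a base modification that is written, erased and read by dedicated proteins on mRNAs and on circRNAs. In m6A immunoprecipitation an antibody pulls down the modified RNA (IP), and the RNA that it does not bind stays in the supernatant (Sup).

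The values described here are those of the Sup fraction alone, in the 9 Sup samples of the 18 samples of the series. C57BL/6J mice of 10 weeks had distal middle cerebral artery occlusion (MCAO), in which the left artery was coagulated for good and both common carotid arteries were then closed for a short time, and cortex around the infarct was taken 3 days (3d, n = 3) or 7 days (7d, n = 3) later. Sham mice (n = 3) had the surgery without MCAO, and the day of their sampling was not used. The tissue label of sham replicate 1 names cortex around the infarct although its treatment is sham, and it was kept as sham. The descriptions of 7d replicates 2 and 3 and of sham replicate 3 give a replicate number that differs from the title, and the titles were followed. Total RNA was split into IP and Sup, digested with RNase R against linear RNA, and labelled with Cy5 (IP) and Cy3 (Sup) for one array. Nothing in the labels says whether a sample was 1 animal or a pool, so the P values measure the spread between these samples.

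The array holds 14236 circRNA probes, with 1 spot each, and 13657 were tested because they were marked well above background in Sup on at least 3 of the 9 arrays. The other 579 were left out, of which 204 were never marked. On all 9 arrays 11664 probes were marked. Between 12556 and 13346 probes were marked on the sham arrays, between 13184 and 13927 at 3d and between 12186 and 13290 at 7d. The median Sup intensity was at most 4.65 times the median local background, and no circRNA spot was saturated. Of the fixed list of marker genes of brain cell types, only Mbp, the myelin protein of oligodendrocytes, had a linear probe, and all of its spots were well above background on every array. Its level was 87, 77 and 74 in sham, 96, 88 and 84 at 3d and 83, 90 and 116 at 7d, and the groups overlapped. The listed markers of neurons, astrocytes, microglia and endothelium had no probe. Apoe, a lipoprotein made largely by astrocytes in brain and not on that list, had 385, 538 and 514 in sham, 474, 591 and 653 at 3d and 429, 430 and 483 at 7d. Chgb, a protein of secretory granules in neurons and endocrine cells, had 73, 70 and 75 in sham, 91, 79 and 83 at 3d and 64, 70 and 74 at 7d. The 3d arrays were the highest for Chgb, while the groups overlapped for Apoe. The same arrays were also the highest for linear probes of genes such as Gpi1, H2-Q7 and Rab5a, and not for others such as Pex11a. They were the highest even for Dnajc11, which had 0 of 10 spots well above background on its lowest array. These levels were scaled on 10 spike-in probes and hold an offset of 50. On that scale the median circRNA level was also higher at 3d than in sham, by 0.17 in log2. Being highest at 3d was therefore not particular to Chgb. The part of cell composition in the circRNA values was not tested. In tissue of mixed cells, fewer cells of a type and less RNA per cell cannot be told apart.

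Some arrays stood apart from the rest of their groups. After each array was set to the same median, 609 probes of 3d replicate 3 and 247 of sham replicate 3 lay more than 2-fold above the median of the 9 arrays, against 1 to 71 on each of the other 7 arrays. More than 2-fold below it lay 78 probes of 3d replicate 3 and 68 of 7d replicate 3, against 0 to 16 on each of the others. 3d replicate 3 and sham replicate 3 were also the brightest arrays, with median intensities of 78.5 and 72, against 53 to 69.5 on the others. Over 13539 circRNA probes, sham replicate 3 correlated at 0.969 and 0.980 with sham replicates 1 and 2. Its correlations with 3d replicates 1, 2 and 3 were 0.989, 0.987 and 0.970, so that it was closer to the first 2 of these than to its own group. Sham replicates 1 and 2 correlated at 0.991 with each other and at 0.987 and 0.985 with 7d replicate 1. Sham arrays came from one scan, and the 3d and 7d arrays from another. The scan and the operation therefore cannot be told apart in 3d vs. sham and 7d vs. sham, whereas 7d vs. 3d lies within 1 scan. Within that scan the 3d arrays lay in row 1 of the slide and the 7d arrays in row 2, so that row and day cannot be told apart either.

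How much the Sup pool changed as a whole depended on the scale. On the scale of the 10 spike-in probes that underlie the deposited values, the median circRNA level was 6.44, 6.41 and 6.46 on the sham arrays (log2 of Sup intensity), 6.65, 6.62 and 6.54 at 3d, and 6.32, 6.44 and 6.49 at 7d. All 3d arrays lay above all others. The difference was 0.17 in 3d vs. sham (1.12-fold) and -0.19 in 7d vs. 3d, each with an exact two-sided permutation p = 0.1, the smallest that 3 against 3 arrays allow. In 7d vs. sham it was -0.02 (exact permutation p = 0.9). With the processed signals the differences were 0.50 in 3d vs. sham and -0.53 in 7d vs. 3d, and with background outliers kept in the correction that of 7d vs. 3d was -0.04 (exact permutation p = 0.9).

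With all 102 spike-in probes the order turned. The medians were 6.55, 6.48 and 6.40 in sham, 6.52, 6.49 and 6.23 at 3d and 6.49, 6.61 and 6.59 at 7d. The 3d arrays were then not above the others, and the differences were -0.06 in 3d vs. sham (exact permutation p = 0.7), 0.09 in 7d vs. sham (exact permutation p = 0.2) and 0.15 in 7d vs. 3d (exact permutation p = 0.2). Scaling on the circRNA median sets this difference to about 0 by construction.

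**Figure D1:**
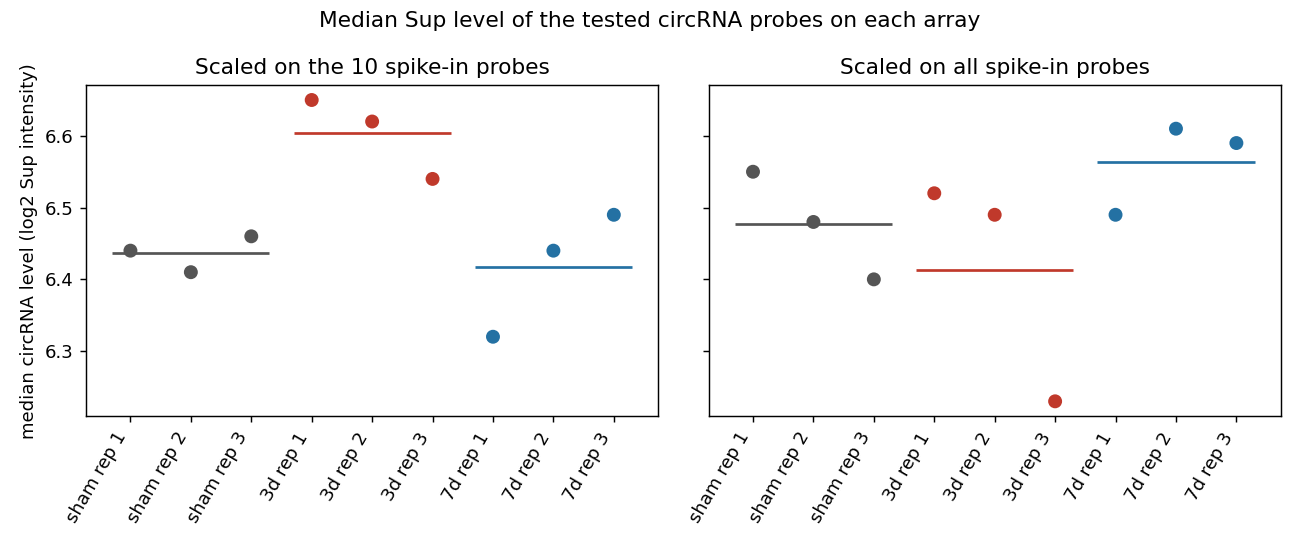
Median level of the 13657 tested circRNA probes (log2 Sup intensity, vertical axis) on each of the 9 arrays, with points for arrays and lines for group means, scaled on 10 spike-in probes (left) or on all spike-in probes (right). The 3d arrays, at 6.54 to 6.65, are the highest on the left and are not on the right.

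The spike-in probes did not move as one. Relative to the circRNA median, the 10 probes differed by -0.17 on average in 3d vs. sham, with an SD of 0.22 over the probes and a range of -0.50 to 0.14. The 5 bright probes, with a mean log2 level over 10, were all lower at 3d, with a mean of -0.34 (SD 0.14). The 5 dim probes had a mean of 0.01 (SD 0.13). Over the 82 spike-in probes that were well above background on all 9 arrays the mean was 0.07 (SD 0.31).

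ASSPINKEIN100002837, a bright spike-in probe, read 9150, 9320 and 9350 in sham, 6110, 7500 and 7460 at 3d and 10100, 10500 and 9830 at 7d before scaling. Its 3d arrays were the lowest of the 9. ASSPINKEIN100007393, a dim one, read 121, 161 and 196 in sham, 158, 171 and 221 at 3d and 124, 140 and 125 at 7d, and its 3d arrays were not lower.

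**Figure D2:**
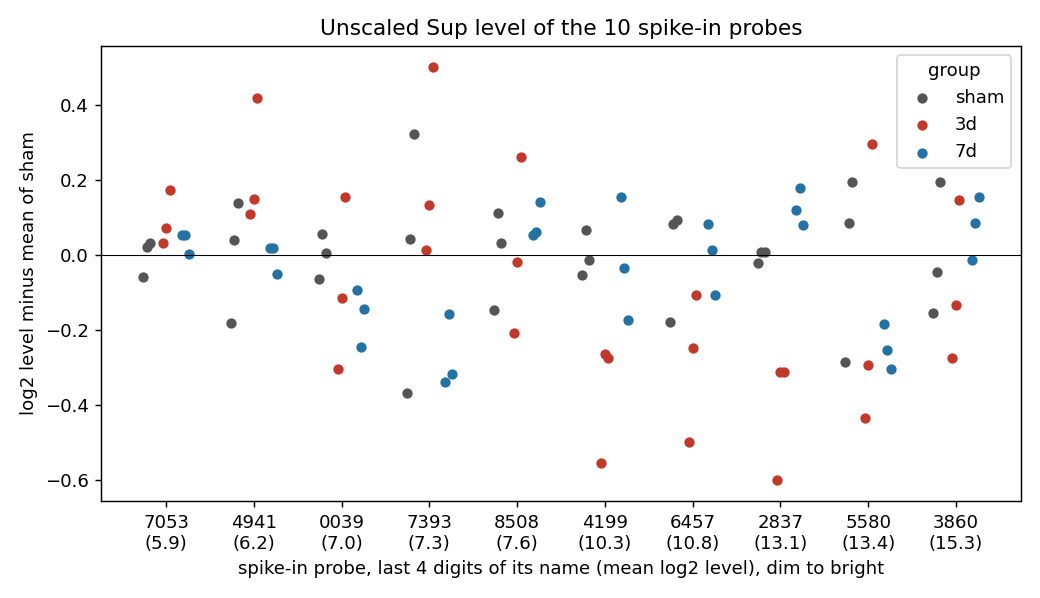
Unscaled log2 Sup level of each of the 10 spike-in probes on each array minus the mean of the sham arrays, ordered from dim to bright and coloured by group. ASSPINKEIN100002837, among the bright probes on the right, is lowest on the 3d arrays, and ASSPINKEIN100007393, among the dim ones on the left, is not.

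The one comparison of all 3 groups (F test of limma, adjusted P by Benjamini-Hochberg) found 4047 of 13657 circRNAs (29.6%) on the scale of the 10 spike-in probes. Among these the 3d group was the highest in 3831 (94.7%), sham in 130 and 7d in 86. Over all tested probes 3d was the highest in 78.3%. Scaled on the circRNA median, or on all spike-in probes, the same limma test found 0, while P before adjustment was under 0.05 in 4171 (30.5%) and 3255 (23.8%). On the first scale the count also fell to 0 when 3d replicate 2, 7d replicate 1 or 7d replicate 2 was left out.

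At 3d against sham, 345 circRNAs were higher (2.53% of those tested) and 19 lower (0.139%) in Sup on the scale of the 10 spike-in probes. A call here asks for more than 1.5-fold and P under 0.05 without adjustment. With adjusted P, 96 were higher (0.703%) and 3 lower (0.022%). On the circRNA median scale the calls were 95 higher (0.696%) and 75 lower (0.549%), and with adjusted P limma called 0 in either direction. All spike-in probes gave 131 higher (0.959%) and 115 lower (0.842%). All 95 were among the 345, of which they made 27.5%, and the 19 were 25.3% of the 75. Without sham replicate 3 and 3d replicate 3 the calls on the 10 spike-in scale were 592 higher and 24 lower, and on the median scale 258 and 80. The higher calls numbered 106 without 3d replicate 3 alone and 900 without sham replicate 3 alone. Of the called higher circRNAs with a value on every 3d array, 3d replicate 3 was the highest of its group in 91.6%, against 29% of all tested.

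At 7d against sham, 53 circRNAs were higher (0.388%) and 343 lower (2.51%). With adjusted P limma called 0, and the methods' t-test after the same adjustment also called 0, while P before adjustment was under 0.05 in 602 higher and 1527 lower circRNAs. On the median scale the split was 65 (0.476%) to 280 (2.05%), and with all spike-in probes 139 (1.02%) to 236 (1.73%). Sham replicate 3 was the highest sham array in 94.4% of those that were lower, against 42.7% of all tested, and without that array 106 were lower. Without 7d replicate 3, 15 were higher. Without sham replicate 3 and 3d replicate 3, 159 were lower and 38 higher.

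The largest number of calls was in 7d against 3d, the comparison within 1 scan but between its rows. Here 1662 circRNAs were lower at 7d (12.2%) and 164 higher (1.2%), and with adjusted P 1474 (10.8%) and 106 (0.776%). On the circRNA median scale 834 were lower (6.11%) and 451 higher (3.3%), with 304 (2.23%) and 281 (2.06%) after adjustment. All 834 were among the 1662 and all 164 among the 451. On all spike-in probes the split turned to 572 lower (4.19%) and 866 higher (6.34%), and with adjusted P limma called 0 in either direction there. The calls shared by the 3 scales were 539 lower and 164 higher. Without 3d replicate 3 the calls on the 10 spike-in scale were 1193 lower and 41 higher, and without 7d replicate 3 they were 1663 and 61. Of the lower calls with a value on every 3d array, 3d replicate 3 was the highest 3d array in 85.4%, against 29% of all tested. Of the higher calls, 7d replicate 3 was the highest 7d array in 84.1%, against 68.9% of all tested.

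**Figure D3:**
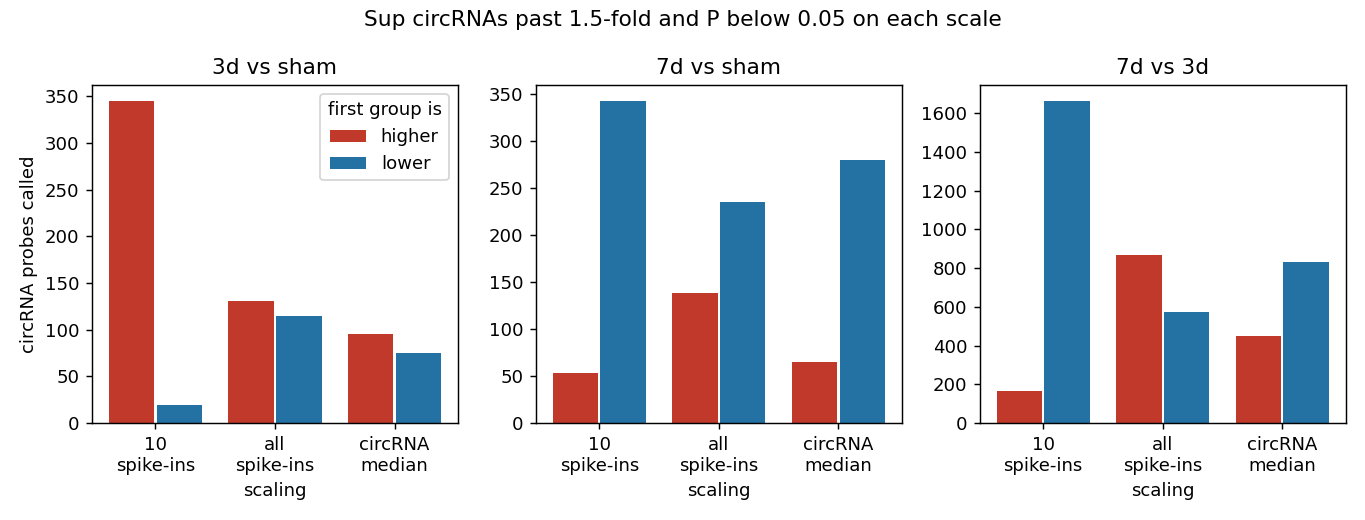
Number of circRNA probes higher (red) or lower (blue) in the first group of each comparison, past 1.5-fold with P under 0.05 before adjustment, under 3 scalings. In 3d vs. sham the 345 higher calls of the 10 spike-in scale become 95 on the circRNA median scale, and in 7d vs. 3d lower calls outnumber higher ones on both of these scales but not with all spike-in probes.

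The calls lay mostly among bright probes. In 7d vs. 3d, tested probes were split by mean level into 4 equal bins, and the brightest bin, with a median intensity of 304, held 1298 of the lower and 157 of the higher calls, and the dimmest, at 65, held 1 and 0. The median log2 change was -0.14 in the dimmest bin and -0.49 in the brightest. On the median scale it was 0.05 and -0.30. An offset of 50 is part of every intensity and makes the changes of dim probes smaller.

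**Figure D4:**
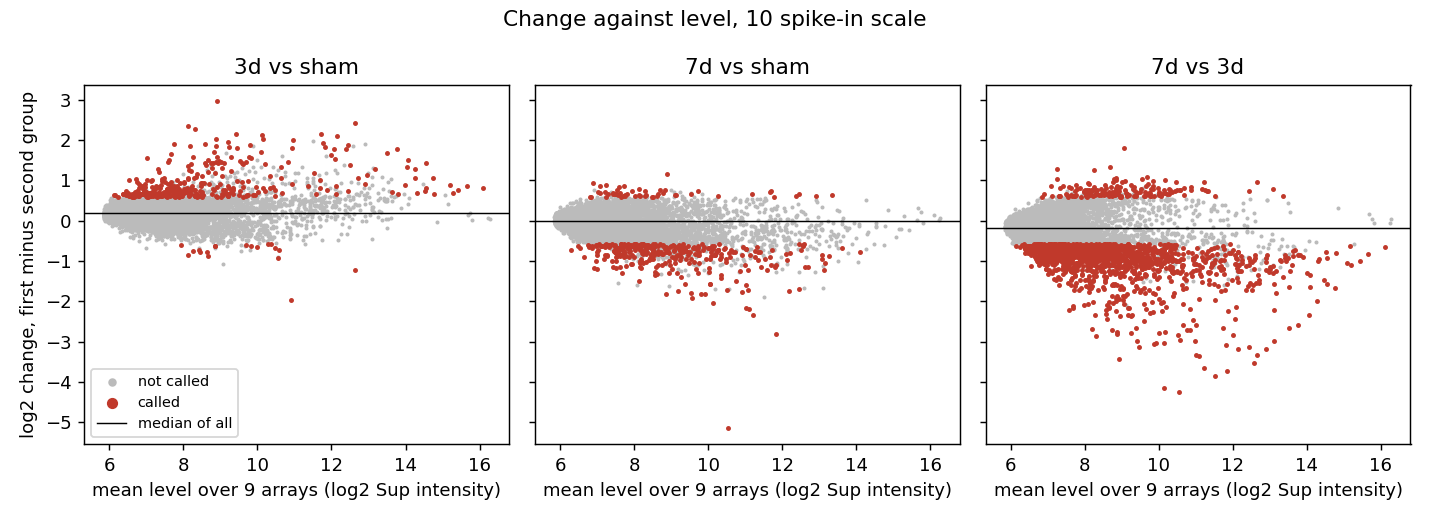
Log2 change (vertical axis) against the mean log2 Sup level over the 9 arrays (horizontal axis) for each tested circRNA in the 3 comparisons, with called circRNAs in red and a line at the median of all. The median is 0.18 in 3d vs. sham, 0.00 in 7d vs. sham and -0.19 in 7d vs. 3d, and the brighter probes spread most.

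Host genes were at hand for 55 probes, which the study had tabled for their m6A level on these same samples. They are therefore not independent evidence of a direction in Sup. All 55 passed the filter. In 3d vs. sham 9 were higher (16.4%, against 2.53% of all tested) and 2 lower (3.64%, against 0.139%), with a median log2 change of 0.15 against 0.18 over all tested. On the median scale the calls were 5 and 4 of the 55, where 0.696% and 0.549% of all tested were called. In 7d vs. sham 3 were higher (5.45%, against 0.388%) and 6 lower (10.9%, against 2.51%), with a median of -0.03 against 0.00. In 7d vs. 3d 5 were higher (9.09%, against 1.2%) and 16 lower (29.1%, against 12.2%), with a median of -0.23 against -0.19.

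Among the 8 probes of transcription and chromatin genes was that of Srebf2, which encodes the master transcription factor of cholesterol synthesis. Of called circRNAs with a value on every array of both groups and no overlap between them, Srebf2 had the largest increase in 3d vs. sham. Its circRNA (mmu_circRNA_28863, ASCRP4004535) had a Sup intensity of 128, 161 and 964 in sham, 1477, 1756 and 3606 at 3d and 166, 259 and 174 at 7d. All 3d arrays were above all others, and sham replicate 3 was the nearest to them. It rose by 2.96 on the log2 scale (SE 0.699, limma adjusted P 0.043) in 3d vs. sham and fell by 3.43 (SE 0.699, adjusted P 0.0105) in 7d vs. 3d. On the median scale the adjusted P were 0.351 and 0.0487.

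The Maml2 circRNA (mmu_circRNA_43775), from a coactivator of Notch signalling, had 1134, 1017 and 171 in sham, 247, 222 and 382 at 3d and 1068, 868 and 949 at 7d. Sham replicate 3 was below every 3d array, and the other sham arrays lay near those of 7d. The change in 7d vs. 3d was 1.80 (SE 0.63, limma P 0.0199, adjusted P 0.0526), and neither comparison with sham was called. Kat6a, a histone acetyltransferase, had 230, 306 and 1054 in sham, 546, 525 and 1684 at 3d and 150, 210 and 153 at 7d, and its circRNA fell by 2.22 in 7d vs. 3d (SE 0.606, limma adjusted P 0.0237). The limma adjusted P of Kat6a on the median scale was 0.0655. The groups of 3d and 7d were apart for both genes.

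Of the 8 probes of genes of synapses and excitability, 1 was higher and 2 lower in 3d vs. sham, 1 higher and 1 lower in 7d vs. sham, and 3 higher and 2 lower in 7d vs. 3d. Over all tested probes the shares of higher and lower calls were 2.53% and 0.139%, 0.388% and 2.51%, and 1.2% and 12.2% in the same order. Scn2a1, a voltage-gated sodium channel of neurons, had 415, 542 and 3229 in sham, 2341, 2536 and 8090 at 3d and 402, 516 and 420 at 7d. Glra2, a subunit of the glycine receptor, had 369, 574 and 2012 in sham, 1257, 1161 and 2736 at 3d and 201, 323 and 243 at 7d. In both, sham replicate 3 lay within the range of the 3d arrays and all 7d arrays lay below them. Scn2a1 was lower in 7d vs. 3d by -3.04 (SE 0.752, limma adjusted P 0.0173) and Glra2 by -2.66 (SE 0.586, limma adjusted P 0.0124). The limma adjusted P on the median scale were 0.0515 for Scn2a1 and 0.0487 for Glra2. Scn2a1 was called higher in 3d vs. sham at 4.05-fold (limma P 0.0262, adjusted P 0.0917).

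The circRNAs of Arhgap32 and of Rims1, a scaffold of the presynaptic active zone, went the other way. Arhgap32 (mmu_circRNA_43940) had 632, 505 and 285 in sham, 276, 288 and 183 at 3d and 542, 521 and 823 at 7d. Rims1 (mmu_circRNA_007113) had 1448, 1305 and 1645 in sham, 1147, 1178 and 668 at 3d and 1348, 1553 and 1944 at 7d. All 7d arrays were above all 3d arrays in both, and sham replicate 3 was within the 3d range for Arhgap32. The change in 7d vs. 3d was 1.33 for Arhgap32 (SE 0.313, limma adjusted P 0.0147) and 0.72 for Rims1 (SE 0.226, limma adjusted P 0.0368). In 3d vs. sham both were called lower by unadjusted P, at -0.88 and -0.59, with adjusted P of 0.0827 and 0.095. Anks1b, a postsynaptic scaffold, was called higher in 7d vs. 3d at 0.72 (SE 0.267, limma P 0.0247, adjusted P 0.0611). Dtnb, a dystrobrevin, was called higher in 7d vs. sham at 0.61 (SE 0.26, limma P 0.0447, adjusted P 0.31). Its change was 0.63 on the median scale and was not called there, which left 0 higher calls among the 8 probes in that comparison.

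**Figure D5:**
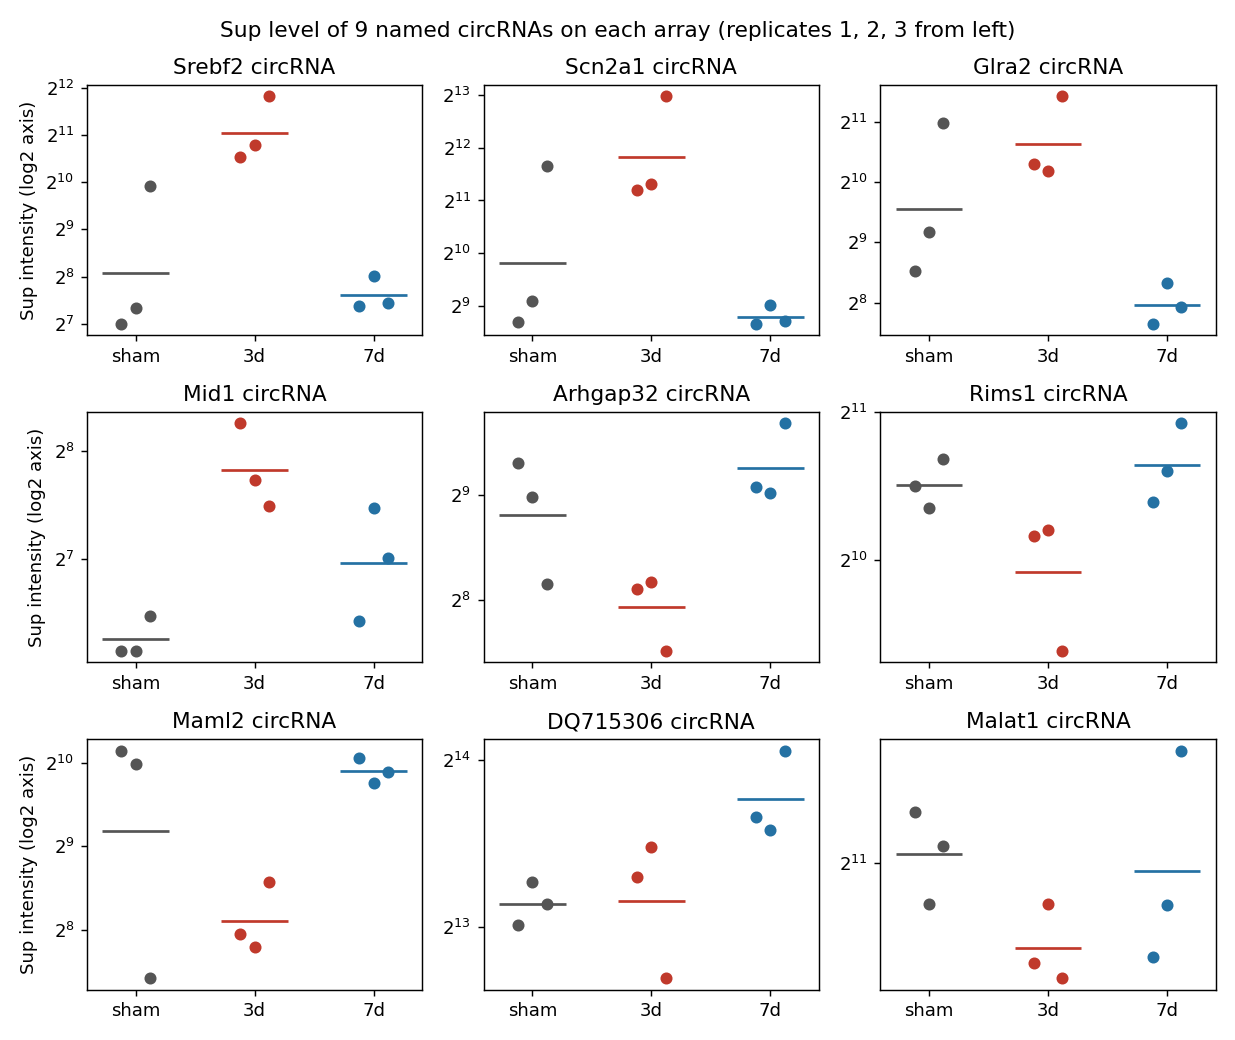
Scaled Sup intensity (log2 axis) of 9 circRNAs, named by host gene, on each array, with points for replicates 1, 2 and 3 from left to right and lines for the means of log2 values. Srebf2 is highest at 3d (1477 to 3606), Arhgap32 and Rims1 are lower at 3d than at 7d, and sham replicate 3 lies among or near the 3d arrays for Scn2a1, Glra2 and Maml2.

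Of the 3 probes of ubiquitin and proteasome genes, Mid1, a microtubule-bound ubiquitin ligase, was called higher than in sham at both times, at 7d by unadjusted P only. It had 71, 71 and 89 in sham, 305, 213 and 180 at 3d and 86, 177 and 129 at 7d. The 3d arrays were above all others, whereas 7d and sham overlapped, with 7d replicate 1 below sham replicate 3. The change was 1.56 in 3d vs. sham (SE 0.272, limma adjusted P 0.0381), 0.71 in 7d vs. sham (SE 0.272, limma P 0.0302, adjusted P 0.276) and -0.86 in 7d vs. 3d (SE 0.272, limma adjusted P 0.0386). The limma adjusted P on the median scale were 0.238 in 3d vs. sham and 0.0935 in 7d vs. 3d. With all spike-in probes the change in 7d vs. 3d was -0.52 and not called. Uba6, a ubiquitin-activating enzyme, had 183, 195 and 1207 in sham, 286, 319 and 1269 at 3d and 107, 133 and 111 at 7d, with a change of -2.07 in 7d vs. 3d (SE 0.775, limma P 0.0267, adjusted P 0.0639).

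Of the 8 probes of endocytosis and membrane traffic, 1 was higher in 3d vs. sham (2.53% of all tested), none was called in 7d vs. sham (0.388% of all tested higher and 2.51% lower), where their median log2 change was 0.01, and 2 were lower in 7d vs. 3d (12.2% of all tested). On the median scale 0 were higher in 3d vs. sham (0.696% of all tested) and 1 was lower in 7d vs. 3d (6.11%). Dopey1 had 72, 77 and 89 in sham, 103, 102 and 178 at 3d and 67, 74 and 71 at 7d, with 0.64 in 3d vs. sham (SE 0.201, limma adjusted P 0.0656) and -0.80 in 7d vs. 3d (SE 0.201, limma P 0.00359). The Dopey1 change in 3d vs. sham was 0.47 on the median scale and 0.40 with all spike-in probes, and was called on neither. That in 7d vs. 3d was -0.46 with all spike-in probes and not called there. Bmp2k, a kinase, had 5356 on 3d replicate 3 alone, against 563 and 673 on the other 3d arrays, and its change in 7d vs. 3d was -1.81 (SE 0.767, limma P 0.0442, adjusted P 0.0918). That change was -1.62 on the median scale and -1.47 with all spike-in probes, and was called on neither. Appl1, an adaptor of early endosomes, was not called in any comparison. Its levels were 81, 73 and 83 in sham, 88, 79 and 76 at 3d and 64, 82 and 87 at 7d, and the groups overlapped.

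Of the 3 probes of microtubules and cilia, Ofd1, a protein of the ciliary base, was higher at 1.01 in 3d vs. sham (SE 0.356, limma adjusted P 0.0819) and lower at -1.12 in 7d vs. 3d (SE 0.356, limma adjusted P 0.0391). Its highest array was 3d replicate 3 at 301, against 64 to 110 on the others. The Ofd1 change in 3d vs. sham was 0.84 on the median scale and was not called there. Its limma adjusted P in 7d vs. 3d was 0.121 on that scale. Cfap69, a protein of cilia and flagella, fell by 0.62 in 7d vs. 3d (SE 0.118, limma adjusted P 0.00939), with 117, 101 and 138 at 3d and 72, 77 and 81 at 7d. On the median scale that change, at -0.43, did not reach 1.5-fold. Clasp1, which binds microtubule plus ends, was not called and had 96, 84 and 87 in sham, 98, 92 and 76 at 3d and 81, 94 and 100 at 7d. Of the 5 probes of RNA and translation genes, Mtrf1, a mitochondrial release factor, was the only one called in any comparison (2.53% of all tested were higher in 3d vs. sham and 12.2% lower in 7d vs. 3d), at 0.60 in 3d vs. sham (SE 0.193, limma adjusted P 0.0695) and -0.88 in 7d vs. 3d (SE 0.193, limma adjusted P 0.0123). The Mtrf1 change in 3d vs. sham was 0.43 on the median scale and 0.36 with all spike-in probes, and was called on neither. That in 7d vs. 3d had a limma adjusted P of 0.0613 on the median scale. With all spike-in probes it was -0.54 and not called. Mrps9 changed by 0.53 in 3d vs. sham (SE 0.0987, limma adjusted P 0.0381) and -0.58 in 7d vs. 3d (limma adjusted P 0.00908), but did not reach 1.5-fold. On the median scale the Mrps9 changes were 0.36 and -0.40. With the processed signals, where 6515 circRNAs were lower in 7d vs. 3d, Mrps9 (-1.50), Larp4b (-1.68) and Trmt44 (-1.23) were called lower there as well.

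Among 7 further circRNAs of intronic and sense-overlapping types, Malat1, a nuclear long noncoding RNA, had an intronic circRNA with 2428, 1794 and 2165 in sham, 1477, 1790 and 1403 at 3d and 1505, 1786 and 2968 at 7d. On the 10 spike-in scale it was not called, with -0.45 in 3d vs. sham (SE 0.236, limma P 0.0916). In that comparison it was called lower on the circRNA median (-0.62) and with all spike-in probes (-0.68), where it was also called higher in 7d vs. 3d (0.71). DQ715306 had 8276, 9876 and 9024 in sham, 10089, 11430 and 6625 at 3d and 12953, 12264 and 17049 at 7d. All its 7d arrays were above all others, with 0.61 in 7d vs. 3d (SE 0.204, limma adjusted P 0.0459) and 0.63 in 7d vs. sham (SE 0.204, limma P 0.0143, adjusted P 0.239). XLOC_027457 had 12917, 11078 and 17470 in sham, 34009, 22911 and 29171 at 3d and 14508, 25232 and 20320 at 7d, with 1.06 in 3d vs. sham (SE 0.241, limma P 0.0019).

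The Rn45s probe (mmu_circRNA_000807, ribosomal RNA precursor) and the Cmss1 probe (mmu_circRNA_005252) were among the 5 of the highest mean Sup level, with ASCRP4006710, ASCRP4012684 and ASCRP4008132. Rn45s lay between 72514 and 86054 on the 9 arrays and was not called. Of the 5, ASCRP4008132 alone was called, with 44634, 52384 and 77445 in sham, 97280, 91216 and 107347 at 3d and 53903, 63073 and 71060 at 7d. It was higher at 0.80 in 3d vs. sham (SE 0.193, limma adjusted P 0.0434, and 0.357 on the median scale), and on the Agilent processed signals scaled by the array median this change was -0.22. With all spike-in probes it was 0.57 and not called.

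Of the 13 other host genes, Slc9a2, a sodium-proton exchanger, had 97, 107 and 199 in sham, 233, 238 and 516 at 3d and 98, 106 and 100 at 7d, and fell by 1.60 in 7d vs. 3d (SE 0.345, limma adjusted P 0.0118). Itgbl1 had 754, 867 and 1593 in sham, 940, 597 and 498 at 3d and 337, 376 and 214 at 7d. Its 7d arrays were the lowest, with -1.12 in 7d vs. 3d (SE 0.342, limma adjusted P 0.0343, and 0.0967 on the median scale). The Itgbl1 change in 7d vs. sham was larger, at -1.75 (SE 0.342, limma P 0.00072, adjusted P 0.17). It was also called lower there on the median scale (-1.73) and with all spike-in probes (-1.65). The Fam135a probe had 3351, 2337 and 5917 at 3d and 271 and 134 on 2 of the 7d arrays, at -4.24 in 7d vs. 3d (SE 0.468, limma adjusted P 0.00908). Its only sham value was 6697 on sham replicate 3, because its other spots were marked as outliers, and the difference of -5.14 in 7d vs. sham therefore rests on that array.

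The largest changes below are those among called circRNAs with a value on every array of both groups and no overlap between the groups, most of them known here only by their array names. ASCRP4005148 had 419, 650 and 4937 in sham, 4251, 2853 and 9099 at 3d and 278, 406 and 170 at 7d, and fell by 4.16 in 7d vs. 3d (SE 0.857, limma adjusted P 0.0108). ASCRP4011427, ASCRP4011497 and ASCRP4010911 also had sham replicate 3 within the range of the 3d arrays, with changes of -3.86, -3.65 and -3.54. In 7d vs. sham the largest such decreases were those of ASCRP4011497 (-2.33), ASCRP4012340 (-2.18), ASCRP4009828 (-2.16) and ASCRP4005148 (-2.04), with limma adjusted P between 0.202 and 0.302. Each had its highest sham value on replicate 3.

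ASCRP4004748 had little spread in sham, with 123, 130 and 157, and rose to 497, 580 and 1150 at 3d, with 165, 316 and 246 at 7d. It was 5.09-fold higher in 3d vs. sham (SE 0.327 on the log2 scale, limma adjusted P 0.0381, and 0.2 on the median scale). Next to it and Srebf2, ASCRP4009745 was 4.87-fold higher (adjusted P 0.0622) and ASCRP4002486 4.4-fold (adjusted P 0.0531) by limma. The largest such decreases in 3d vs. sham were those of ASCRP4005038 (-1.22), ASCRP4010067 (-0.93), ASCRP4005674 (-0.76) and ASCRP4006753 (-0.73). Of these ASCRP4010067 passed the adjusted threshold (limma adjusted P 0.0381, but 0.2 on the median scale), with 1837, 2126 and 1911 in sham, 1057, 1159 and 879 at 3d and 2160, 1523 and 1580 at 7d. Its 3d arrays were below all others.

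In 7d vs. sham the largest such increases were ASCRP4001141 (1.15), ASCRP4007994 (0.94), ASCRP4007413 (0.89) and ASCRP4012259 (0.87), with limma adjusted P between 0.202 and 0.27. In 7d vs. 3d, beside Maml2 and Arhgap32, ASCRP4007413 was higher at 1.28 (limma adjusted P 0.0195) and ASCRP4005674 at 1.25 (limma adjusted P 0.0104). ASCRP4007413 had 203, 171 and 72 in sham, 106, 90 and 115 at 3d and 265, 232 and 258 at 7d, so that its 7d arrays were above all others.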

How the data were processed

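The Cy3 (Sup) channel of 9 arrays was used; the IP channel gave no values. The authors deposited scanner intensity values, which Agilent Feature Extraction 11.0.1.1 had read from the images. The log2 values of the table deposited by the authors are processed signals minus a constant per array, which equals the average of 10 among 102 spike-in probes (largest difference 5.57e-10); they served as an alternative.

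Median intensities were background-corrected with normexp (offset 50, limma 3.58.1, R 4.3.3). Spots marked as outliers of signal, or for a non-uniform local background (background outliers here), were left out. Spots marked only as population outliers of local background were kept. With the spots of non-uniform background kept, the fitted background of 7d replicate 3 was -50.82 in place of 10.17. The choice to leave these out was made after the data were seen. Spots of a probe were averaged, and arrays were shifted to one mean of the 10 spike-in probes. All 9 arrays were fitted together (lmFit, eBayes), and the fit was tested on simulated data. Missing values (142, in 118 probes) were not imputed.

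Named probes were the 4 largest increases and decreases per comparison among called circRNAs with the groups apart, the 5 brightest, and those tabled by the study, whose values served only to join names to probes (tolerance 1e-04; 60 entries, 55 probes). The study's fold changes and P values were not used otherwise. The members and lists were chosen with earlier results of these data known. Alternatives are given at the end.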

Additional observations from a re-analysis of the deposited data

Results flagged for a closer look

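The change from sham differed between 3d and 7d by the test of 7d vs. 3d itself in 1474 circRNAs lower and 106 higher at 7d (limma, adjusted P, 10 spike-in probes), and in 304 lower and 281 higher on the circRNA median scale. With all spike-in probes it was 0 in either direction.

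Signal also appeared in probes outside the comparisons. Of the 50 probes for linear mRNAs, 36 were well above background on every one of their 10 spots on all 9 arrays although the RNA had been digested with RNase R. Chosen after its values were seen, the brightest was Olfr1307, an olfactory receptor, with 1463, 1634 and 4749 in sham, 3668, 2720 and 2921 at 3d and 963, 1111 and 599 at 7d, so that sham replicate 3 was above the 3d arrays and the 7d arrays were the lowest. Lhx1, a homeobox gene, had 482, 651 and 1170 in sham, 796, 863 and 2718 at 3d and 375, 411 and 398 at 7d. Their part in the circRNA values was not tested. A further 375 circRNA probes were well above background on 1 or 2 arrays and were not tested.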

How the results depend on the processing

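Counts are given as higher and lower. Scaling on the circRNA median gave 95 and 75 in 3d vs. sham, 451 and 834 in 7d vs. 3d and 0 in the F test. All spike-in probes gave 131 and 115 in 3d vs. sham, 139 higher in 7d vs. sham, 866 and 572 in 7d vs. 3d and 0 in the F test. Quantile normalization gave 121 and 76, 213 and 180, and 701 and 464 in the 3 comparisons, and 772 in the F test. Without background correction 90 were higher in 7d vs. sham. The processed signals gave 5260 and 61, 788 and 1369, and 317 and 6515, with 6147 in the F test, and the deposited values 4701 and 57, 778 and 1213, and 325 and 5758. The methods' t-test gave 104 and 4 in 3d vs. sham, 181 lower in 7d vs. sham and 59 higher in 7d vs. 3d, and after Benjamini-Hochberg adjustment 1 and 0, 0 and 0, and 8 and 932. Adjusted P gave 96 and 3, 0 and 0, and 106 higher in 7d vs. 3d. The cause of these differences was not tested.

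The following were chosen after the data were seen. With background outliers kept in the normexp fit, the counts were 520 and 29 in 3d vs. sham, 582 lower in 7d vs. sham, 107 higher in 7d vs. 3d and 1004 in the F test. The processed signals on the array median gave 1014 and 974, 959 and 1290, 1962 higher in 7d vs. 3d and 1772 in the F test. The array median with adjusted P gave 0 and 0, 0 and 0, and 281 and 304. Without sham replicate 3 and 3d replicate 3, 592 were higher in 3d vs. sham, 159 lower in 7d vs. sham and 45 higher in 7d vs. 3d, with 4147 in the F test, and on the array median 80 lower in 3d vs. sham, 142 lower in 7d vs. sham and 539 lower in 7d vs. 3d, with 1295 in the F test.

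Leaving out 1 array at a time gave 106 (without 3d replicate 3) to 900 (without sham replicate 3) higher and 15 to 46 lower in 3d vs. sham, 15 (without 7d replicate 3) to 132 (without 7d replicate 1) higher and 106 (without sham replicate 3) to 748 (without sham replicate 1) lower in 7d vs. sham, 41 (without 3d replicate 3) to 327 (without 7d replicate 1) higher and 1193 to 2010 lower in 7d vs. 3d, and 0 to 3949 in the F test. The median difference ranged from 0.15 to 0.20, from -0.06 to 0.03 (without 7d replicate 1) and from -0.23 to -0.14. It turned sign with all spike-in probes, to -0.06, 0.09 and 0.15, and with background outliers kept to 0.12 in 7d vs. sham. ASCRP4008132 turned sign on the processed signals with the array median, to -0.22 in 3d vs. sham and 0.28 in 7d vs. 3d.

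With the replicate block the counts were 443 and 13, 56 and 417, and 151 and 1734, with 3555 in the F test. Deviations of same-numbered arrays correlated at 0.54, 0.24 and 0.54 between sham and 3d, at -0.25, -0.28 and -0.39 between sham and 7d, and at -0.19, -0.02 and -0.10 between 3d and 7d, and those of differently numbered arrays between -0.64 and 0.60. Every same-numbered pair was thus above 0.1 between sham and 3d only, although sham replicate 1 correlated more with 3d replicate 2. A fit of those 6 arrays alone with the replicate block, chosen after the data were seen, gave 465 and 21 in 3d vs. sham. The median signal was at most 4.65 times the local background, which limits what dim probes can show.

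Of the 76 called changes of named circRNAs, those that could be recomputed kept their direction under these settings apart from the reversal of ASCRP4008132. Because they were chosen on these same arrays as past 1.5-fold, a kept direction was largely set by that choice and is no independent evidence. That was 75 of them in the settings without sham replicate 3 and with the filter on all 9 arrays. Of 149 changes of named circRNAs that were not called, 3 were called on the circRNA median and 9 with all spike-in probes. The call was lost in 11 on the circRNA median, in 11 with all spike-in probes, in 33 with the methods' t-test, in 40 with adjusted P, in 57 with adjusted P on the circRNA median, and in 2 to 20 when 1 array was left out.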
